A study of Caenorhabditis elegans with 9 samples.

Results

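The genes examined here belong to the fasting and fat-burning programme of *C. elegans* that centres on the nuclear hormone receptor NHR-49. They are 9 of the 46739 genes in the table, namely *acs-2*, *acs-11*, *nhr-49*, *fmo-2*, *cpt-1*, *cpt-3*, *hacd-1*, *ech-9* and *icl-1*, and were chosen by their WormBase names with earlier results known, *acs-2* for its far higher counts in the treated libraries than in the control. The differences of the 9 genes from the control are therefore given as a description, without p-values. Calls against the control are only counted, or named where a setting changed them. All 9 passed the filter on low counts.

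RNA came from whole worms of the wild-type strain N2, which were placed on RNAi plates as L1 larvae and collected as L4 larvae. The worms ate bacteria carrying the empty vector (EV), bacteria expressing *cco-1* RNAi or bacteria expressing *his-3* RNAi, with 3 libraries per group. *cco-1* encodes a subunit of complex IV of the mitochondrial respiratory chain, and the *his-3* clone is directed at several near-identical genes of histone H2A. The labels do not say whether the libraries of a group came from separate cultures, and the p-values measure only the spread between these libraries.

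NHR-49 resembles the mammalian receptor HNF4 in sequence and carries out tasks that PPARα has in mammals. In a worm without food, fatty acids released from stored fat are activated to acyl-CoA, carried into mitochondria on carnitine and shortened by beta-oxidation, and the glyoxylate cycle lets the resulting acetyl-CoA feed glucose synthesis. *acs-2* is the best known of the genes that fasting switches on through NHR-49, mainly in the intestine and the hypodermis.

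Reads on genes numbered between 25129763 and 32017517 per library, and 16817 genes had more than 5 reads in more than 3 libraries and were tested. *cox-5B*, the gene that *cco-1* RNAi is aimed at, lay between 4538 and 4945 normalized counts under *cco-1* RNAi and between 12509 and 12749 in EV. *his-3* had 100 to 120 normalized counts under *his-3* RNAi and 169 to 180 in EV, and fewer still under *cco-1* RNAi, 13.6 to 22.5, although reads that fit several of the near-identical H2A genes were not counted. Normalized counts are reads scaled by TMM, edgeR's correction for library size and composition, to a library of average size. In these whole worms, fewer cells of a type and less RNA per cell cannot be told apart.

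The genes that activate fatty acids were both higher with either treatment. *acs-2* (WBGene00009221, chromosome V, 15567394 to 15569897 in WBcel235) encodes an acyl-CoA synthetase. In EV it had 17.6, 35.3 and 15.1 normalized counts in replicates 1, 2 and 3, from only 17, 32 and 16 reads. With *cco-1* RNAi the 3 libraries had 5646, 5564 and 5816 normalized counts, and under *his-3* RNAi 4110, 5092 and 5971. The lowest treated library was thus far above the highest EV library, the mean ratio to EV was 250 under *cco-1* RNAi and 223 under *his-3* RNAi, and *acs-2* ranked 3 and 5 among the 16817 genes by log2 fold change. The size of this ratio rests on a small denominator, and leaving out single libraries moved the log2 fold change between 7.75 and 8.43 under *cco-1* RNAi and between 7.58 and 8.26 under *his-3* RNAi.

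*acs-11* (WBGene00018269, chromosome II, 4742137 to 4745280), another acyl-CoA synthetase gene, was already active in EV, with 1234, 1199 and 1229 normalized counts. It had 2293, 2487 and 2331 under *cco-1* RNAi and 1893, 2013 and 2220 under *his-3* RNAi. The groups did not overlap, and the log2 fold changes were 0.96 (standard error 0.0563) and 0.74 (standard error 0.0563), a modest difference beside that of *acs-2*.

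**Figure D1:**
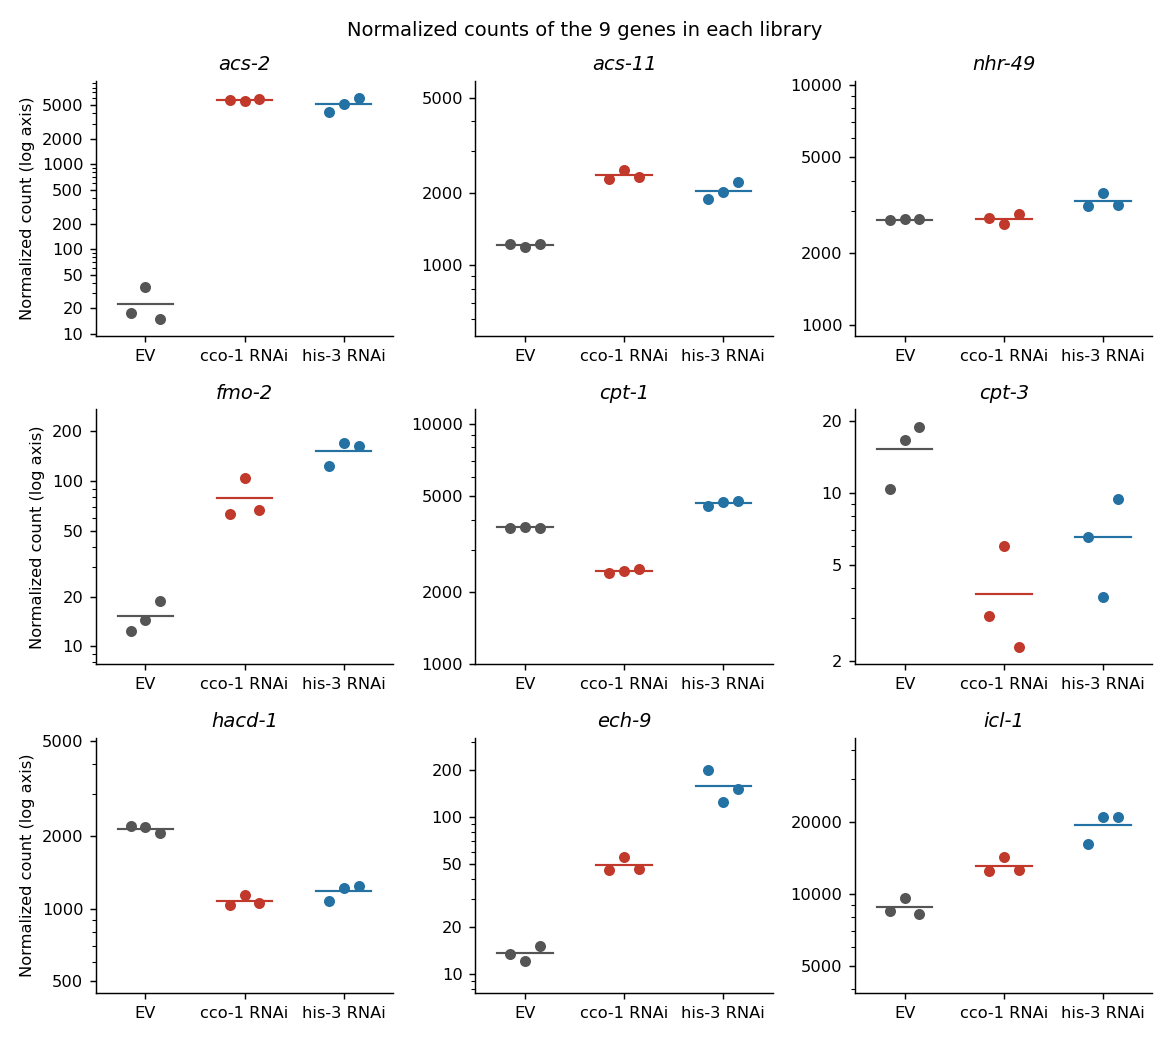
Normalized counts of the 9 genes in each library, on log axes with a scale of their own in each panel. Each point is a library, ordered by replicate number within its group, and each bar is the mean of 3 libraries. *acs-2* stands at 15.1 to 35.3 in EV and above 4110 in every treated library, whereas *hacd-1* and *cpt-3* lie lower with both treatments and *cpt-1* lies lower under *cco-1* RNAi and higher under *his-3* RNAi.

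The carnitine shuttle genes examined, *cpt-1* and *cpt-3*, both lay below EV under *cco-1* RNAi, unlike *acs-2*. With *his-3* RNAi *cpt-1* was higher, as *acs-2* was but by far less, and *cpt-3* was lower. *cpt-1* (WBGene00012907, chromosome II, 12788244 to 12796452) encodes a carnitine palmitoyltransferase, the enzyme that passes fatty acids from CoA to carnitine. Its 3 libraries had 3685, 3745 and 3707 normalized counts in EV, 2400, 2452 and 2503 under *cco-1* RNAi and 4574, 4747 and 4781 under *his-3* RNAi. The log2 fold change was −0.60 (standard error 0.0402) under *cco-1* RNAi and 0.34 (standard error 0.0391) under *his-3* RNAi, so that the treatments lay on opposite sides of EV.

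*cpt-3* (WBGene00021703, chromosome III, 2082819 to 2088314), a second carnitine palmitoyltransferase gene, had few reads in every group. There were 10, 15 and 20 in EV, 3, 6 and 2 under *cco-1* RNAi and 7, 4 and 10 under *his-3* RNAi. After scaling, all 6 treated libraries lay below the lowest EV library, which had 10.4 normalized counts, although the highest *his-3* RNAi library came close with 9.44. The log2 fold changes were −1.96 (standard error 0.452) and −1.22 (standard error 0.388). With *his-3* RNAi the call was lost without EV replicate 3 and without *his-3* RNAi replicate 2, where the log2 fold changes were −1.02 and −0.93.

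The genes of beta-oxidation went in opposite directions. *hacd-1* (WBGene00019978, chromosome V, 1460369 to 1461613) encodes a hydroxyacyl-CoA dehydrogenase. Its EV group was high, with 2204, 2195 and 2061 normalized counts, and its treated groups low, with 1041, 1136 and 1052 for *cco-1* RNAi and 1079, 1220 and 1240 for *his-3* RNAi. The treated and EV libraries did not overlap, and EV was 1.83 times as high as *his-3* RNAi. The log2 fold changes were −0.999 (standard error 0.0569) and −0.87 (standard error 0.0559).

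*ech-9* (WBGene00001158, chromosome IV, 10233310 to 10235329) is named for the enoyl-CoA hydratases, which act a step before the hydroxyacyl-CoA dehydrogenases. It was barely read in EV, with 13.5, 12.2 and 15.1 normalized counts, and had 46.0, 55.9 and 46.5 under *cco-1* RNAi and 199, 124 and 150 under *his-3* RNAi. The 3 groups did not overlap, and the log2 fold changes were 1.85 (standard error 0.287) and 3.52 (standard error 0.227). Its exons share 6 bases with a neighbouring gene on the same strand, and the other 8 genes share none with any annotated gene.

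*icl-1* (WBGene00001564, chromosome V, 724332 to 728004) encodes the bifunctional enzyme of the glyoxylate cycle, which joins isocitrate lyase and malate synthase. The EV libraries had 8494, 9615 and 8263 normalized counts, those under *cco-1* RNAi 12456, 14322 and 12579, and those under *his-3* RNAi 16220, 20913 and 20852. Each group was separate from the other two. The log2 fold changes were 0.58 (standard error 0.0880) under *cco-1* RNAi and 1.14 (standard error 0.0885) under *his-3* RNAi.

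*fmo-2* (WBGene00001477, chromosome IV, 10682524 to 10684367) encodes a flavin-containing monooxygenase, which is known to lengthen lifespan when overexpressed and is induced by fasting. It had 12.4, 14.4 and 18.9 normalized counts in EV, 63.4, 104.8 and 67.0 under *cco-1* RNAi and 123, 169 and 163 under *his-3* RNAi. Again the 3 groups did not overlap, with log2 fold changes of 2.35 (standard error 0.277) and 3.29 (standard error 0.242). With 12 to 20 reads per EV library, the counting error adds to the spread of *fmo-2*.

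For the receptor gene itself the groups lay close together. *nhr-49* (WBGene00003639, chromosome I, 9869651 to 9874680) had 2730, 2765 and 2758 normalized counts in EV, 2786, 2642 and 2893 under *cco-1* RNAi and 3138, 3550 and 3161 under *his-3* RNAi. EV and *cco-1* RNAi overlapped, with a log2 fold change of 0.011 (95% interval −0.098 to 0.12), whereas every *his-3* RNAi library was above every EV library, with a log2 fold change of 0.26 (standard error 0.0510). Scaling the libraries to *act-1* and *pmp-3* instead of TMM gave *nhr-49* log2 fold changes of 0.18 under *cco-1* RNAi, now past the threshold, and 0.54 under *his-3* RNAi. The same scaling put the median of all genes at 0.17 and 0.31.

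Counted together, 5 of the 9 genes were higher and 3 lower under *cco-1* RNAi at an adjusted p under 0.05 in edgeR's quasi-likelihood test, and 7 were higher and 2 lower under *his-3* RNAi. Of all genes tested, 70.8% were called under *cco-1* RNAi, 34.9% higher and 35.9% lower, and 54.8% under *his-3* RNAi, 26.9% higher and 27.9% lower. Only *acs-2* and *fmo-2* under *cco-1* RNAi, and these and *ech-9* under *his-3* RNAi, also had a log2 fold change of at least 2, as had 4.31% and 3.23% of all genes in the upward direction. The median log2 fold change of the 9 genes was 0.58 and 0.74, beside medians of 0.0061 and 0.020 over all genes. The genes were chosen with these differences in view, the EV libraries serve in both comparisons, and nothing is read from the counts.

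**Figure D2:**
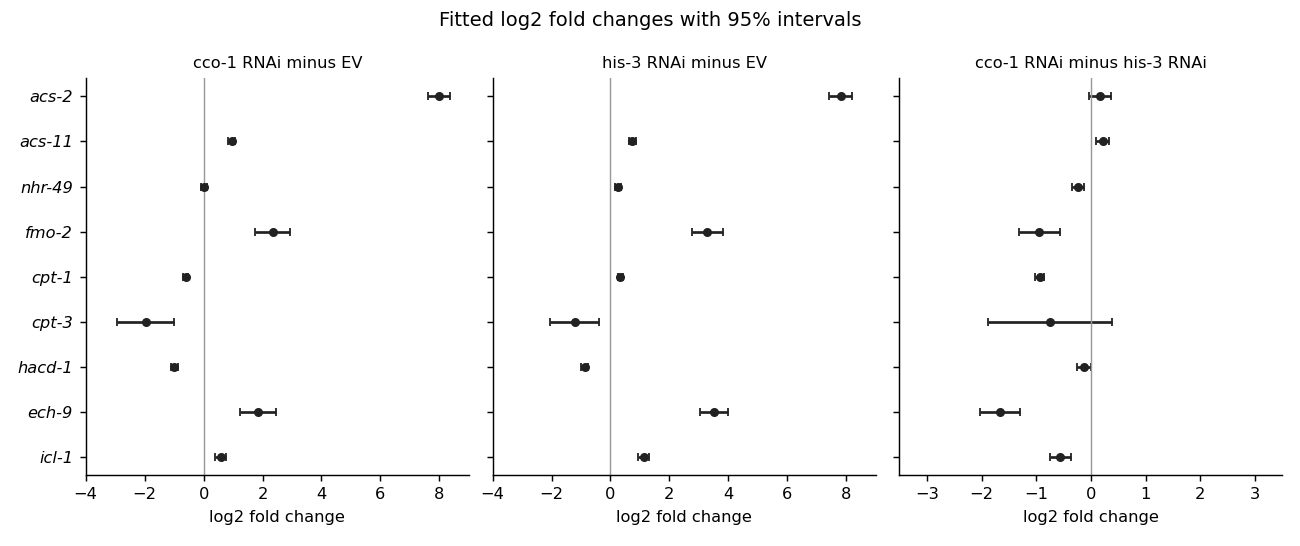
Fitted log2 fold changes of the 9 genes in the 3 comparisons, with points for the estimates and bars for their 95% intervals from the edgeR fit. The first 2 panels share a scale, on which *acs-2* reaches 7.99 and 7.82, and the third panel, on a narrower scale, runs from −1.66 for *ech-9* to 0.22 for *acs-11*.

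The treatments were then compared with each other, a difference that the choice of genes did not name. It uses the same treated libraries, and *acs-2* was chosen as high in both treatments, so the comparison is not independent of the choice. *cco-1* RNAi gave lower levels than *his-3* RNAi for 5 of the 9 genes and a higher level for 1, at an adjusted p under 0.05, where 68.6% of all genes were called, 36.8% lower and 31.8% higher. The largest difference was that of *ech-9*, which was 3.18 times as high under *his-3* RNAi (log2 fold change −1.66, standard error 0.175, edgeR adjusted p = 2.71e-07). *fmo-2* was 1.94 times as high under *his-3* RNAi (−0.94, standard error 0.175, edgeR adjusted p = 0.000147) and *cpt-1* 1.92 times (−0.94, standard error 0.0399, edgeR adjusted p = 2.02e-12).

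*icl-1* was 1.47 times as high under *his-3* RNAi as under *cco-1* RNAi (log2 fold change −0.56, standard error 0.0875, edgeR adjusted p = 2.67e-05), and *nhr-49* 1.18 times (−0.24, standard error 0.0510, edgeR adjusted p = 0.000465). *acs-11* was the gene that was higher under *cco-1* RNAi (0.22, standard error 0.0539, edgeR adjusted p = 0.00203). That call was lost when libraries were scaled by their size alone or to *act-1* and *pmp-3*, where the log2 fold change was 0.092 under both scalings.

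For *acs-2*, *cpt-3* and *hacd-1* no difference between the treatments passed the test. The log2 fold change of *acs-2* was 0.17 with a 95% interval of −0.038 to 0.37 (edgeR adjusted p = 0.137), so that its levels differed by less than the spread within *his-3* RNAi, where the lowest and highest libraries were 4110 and 5971. Without *his-3* RNAi replicate 3, the highest of these, the value became 0.30 and passed the test (edgeR adjusted p = 0.00693), as it did with no filter on low counts (0.18, adjusted p = 0.00653). For *hacd-1* the value was −0.13 (95% interval −0.26 to −0.0072, edgeR adjusted p = 0.0569), and it passed without *cco-1* RNAi replicate 2 (−0.17, adjusted p = 0.0279) and without *his-3* RNAi replicate 1 (−0.19, adjusted p = 0.00477). It also passed with libraries scaled by size alone or to *act-1* and *pmp-3* (−0.25 each, edgeR adjusted p = 0.000594 and 0.0023). The interval of *cpt-3*, −1.89 to 0.39, was too wide to tell its levels apart at this depth.

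Levels were compared between genes per kilobase of exon, on the scale of normalized counts. In EV the 9 genes fell into a high and a low set. *icl-1* was highest with 2808 ± 231 per kilobase (SD, n = 3), followed by *hacd-1* with 2107 ± 78.1, *cpt-1* with 1324 ± 10.9, *nhr-49* with 1290 ± 8.76 and *acs-11* with 734 ± 11.4, and no neighbours in this order overlapped. Far below them, *acs-2* (10.9 ± 5.29), *fmo-2* (9.19 ± 2.01), *ech-9* (8.24 ± 0.909) and *cpt-3* (6.79 ± 1.96) overlapped with their neighbours and could not be ranked.

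With either treatment *acs-2* stood second only to *icl-1*. It reached 2725 ± 61.8 normalized counts per kilobase under *cco-1* RNAi, where *icl-1* had 4190 ± 333, and 2428 ± 447 under *his-3* RNAi, where *icl-1* had 6173 ± 860. *fmo-2* remained low, at 47.3 ± 13.8 under *cco-1* RNAi and 91.5 ± 15.3 under *his-3* RNAi, as did *ech-9*, at 27.9 to 33.9 and 75.3 to 120 in the 3 libraries of each, and *cpt-3* was last with either treatment. With *his-3* RNAi, *cpt-1* overlapped with *nhr-49*, *acs-11* with *hacd-1*, and *ech-9* with *fmo-2*. *hacd-1*, second in EV, came to 1053 ± 51.0 and 1154 ± 85.5 with the treatments and took the fifth and the sixth place.

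**Figure D3:**
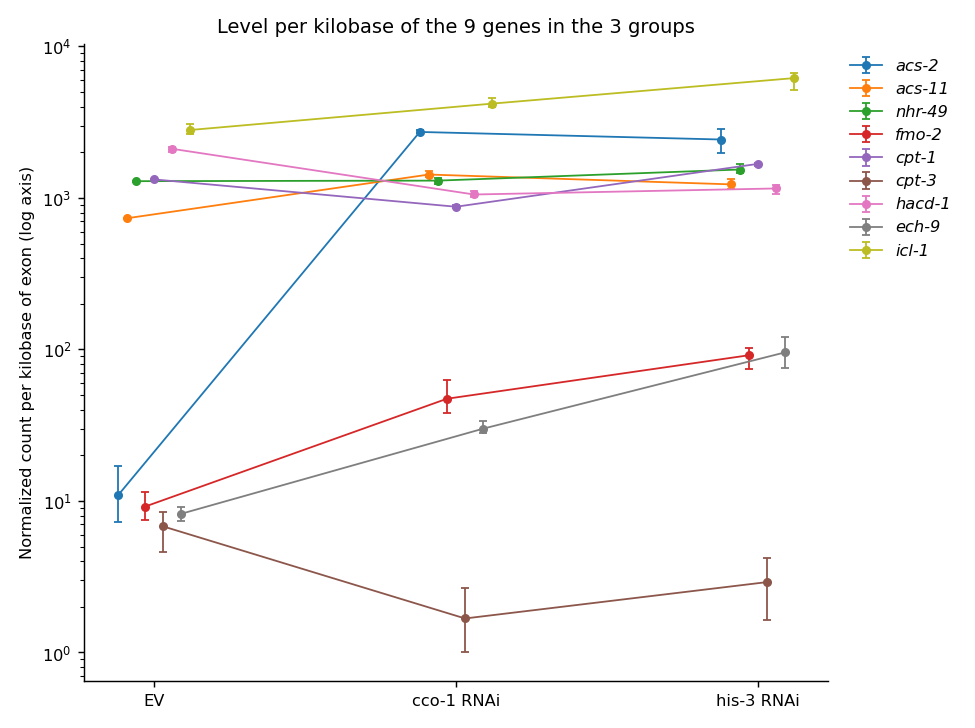
Normalized counts per kilobase of exon of the 9 genes in EV, *cco-1* RNAi and *his-3* RNAi, on a log axis. Points are means of 3 libraries, bars run from the lowest to the highest library, and lines join the points of a gene. *acs-2* passes from the low set in EV (10.9) to second place under *cco-1* RNAi (2725) and *his-3* RNAi (2428).

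Replicates of a treatment did not spread equally. In EV the coefficient of variation was 0.679% for *nhr-49*, 0.820% for *cpt-1* and 1.55% for *acs-11*, against 48.5% for *acs-2*, 28.9% for *cpt-3*, 21.9% for *fmo-2* and 11.03% for *ech-9*, which had between 10 and 32 reads per EV library. For *acs-2*, EV replicate 2 held about as many reads (32) as the others together (17 and 16). *his-3* RNAi replicate 1 had the lowest normalized count of its group for 7 of the 9 genes, *acs-2*, *acs-11*, *cpt-1*, *fmo-2*, *hacd-1*, *icl-1* and *nhr-49*, and the highest for *ech-9*. *cco-1* RNAi replicate 2 was the highest of its group for 6 genes, and replicate 1 of that treatment the lowest for 6. How often each library was lowest or highest over all genes was not counted, so these numbers are not read as a trait of the 9 genes.

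Other genes related by name to fatty acid breakdown moved in both directions. They were drawn up in 3 lists, of acyl-CoA synthetases, the carnitine shuttle and beta-oxidation enzymes. A place in these lists does not show that a gene acts in fatty acid breakdown. Of 53 listed genes that are not among the 9, 20 rose and 23 fell under *cco-1* RNAi, with a median log2 fold change of −0.081, and 6 rose and 36 fell under *his-3* RNAi, with a median of −0.38. Over all genes tested 34.9% rose and 35.9% fell under *cco-1* RNAi, and 26.9% rose and 27.9% fell under *his-3* RNAi. These shares also belong beside the counts of each list below. Of the 53 genes here, 67.9% fell under *his-3* RNAi. With *act-1* and *pmp-3* as the scale, 26 rose and 20 fell under *cco-1* RNAi, and 16 rose and 23 fell under *his-3* RNAi. That scaling put the median over all genes at 0.17 and 0.31, and took the split of all calls from 4525 higher and 4688 lower to 9450 higher and 1827 lower under *his-3* RNAi, and from 5872 and 6040 to 7529 and 4552 under *cco-1* RNAi.

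Among 20 other acyl-CoA synthetase genes, 5 rose and 10 fell under *cco-1* RNAi, and 5 rose and 8 fell under *his-3* RNAi, a split that turned to 11 higher and 5 lower with *act-1* and *pmp-3* as the scale. The largest rise among the 20 was that of *acs-19* under *cco-1* RNAi. It rose from 4842 ± 162 normalized counts to 12312 ± 349 under *cco-1* RNAi and 6642 ± 366 under *his-3* RNAi (SD, n = 3 each), by 1.35 and 0.46 on the log2 scale (edgeR adjusted p = 3.26e-13 and 8.63e-07). *acs-20* fell from 6330 ± 69.6 to 998 ± 39.2 under *cco-1* RNAi and less under *his-3* RNAi, to 5239 ± 397, with log2 fold changes of −2.66 and −0.27 (edgeR adjusted p = 2.41e-16 and 0.000239). *acs-22*, like *acs-20* a relative of the mammalian fatty acid transport proteins, fell with both, with log2 fold changes of −1.90 and −1.26 (edgeR adjusted p = 2.50e-15 and 1.24e-12).

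Of 5 other genes of the carnitine shuttle, 1 rose and 3 fell with each treatment. *cpt-4* moved in the same directions as *cpt-1*. It went from 1320 ± 42.1 normalized counts in EV to 419 ± 16.5 under *cco-1* RNAi and 2088 ± 140 under *his-3* RNAi (SD, n = 3 each), or by −1.65 and 0.66 on the log2 scale (edgeR adjusted p = 3.22e-13 and 1.80e-08). *cpt-5* fell under both, its log2 fold changes being −1.22 and −0.86, as did *dif-1*, which encodes a carrier of the mitochondrial carnitine family, with −0.40 and −0.68 (edgeR adjusted p at most 5.49e-07 in these 4 tests). *cpt-2*, the gene for the inner membrane enzyme, had log2 fold changes of 0.044 (edgeR adjusted p = 0.336) and −0.42 (adjusted p = 1.81e-07).

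The beta-oxidation list held 28 genes beside *hacd-1* and *ech-9*, among them acyl-CoA dehydrogenases, enoyl-CoA hydratases and thiolases. With *cco-1* RNAi, 14 rose and 10 fell. With *his-3* RNAi 25 fell and 3 did not pass the edgeR test, with a median log2 fold change of −0.49, and with *act-1* and *pmp-3* as the scale 4 rose and 15 fell. *acdh-6* fell from 2178 ± 44.2 normalized counts to 50.4 ± 18.3 under *cco-1* RNAi and to 1538 ± 82.9 under *his-3* RNAi (SD, n = 3 each), on the log2 scale −5.44 and −0.50 (edgeR adjusted p = 2.05e-16 and 1.24e-05). *acdh-1*, known for its response to propionate and vitamin B12, fell from 46603 ± 947 to 9907 ± 804 and 13458 ± 688. *acdh-2* parted the treatments, with 44.5 ± 15.2 in EV, 173 ± 5.58 under *cco-1* RNAi and 7.17 ± 3.57 under *his-3* RNAi (log2 fold changes 1.97 and −2.60, edgeR adjusted p = 5.18e-08 and 6.15e-06). The size of its fall rests on low counts under *his-3* RNAi, 4.60 to 11.2.

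In peroxisomes a related pathway shortens very long fatty acids and makes ascaroside pheromones. Of its 10 genes listed, 2 rose and 4 fell under *cco-1* RNAi, and 9 fell under *his-3* RNAi, with a median log2 fold change of −0.80 for the latter. With *act-1* and *pmp-3* as the scale, 8 fell and 1 rose under *his-3* RNAi. The acyl-CoA oxidase gene *acox-1.2* fell, with log2 fold changes of −2.84 and −1.89 (edgeR adjusted p = 1.95e-17 and 6.19e-15), and so did *acox-1.4*, with −1.52 and −2.52 (edgeR adjusted p = 7.59e-14 and 1.69e-15). *ech-9*, higher with both treatments, was listed with the beta-oxidation enzymes and not among these genes.

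**Figure D4:**
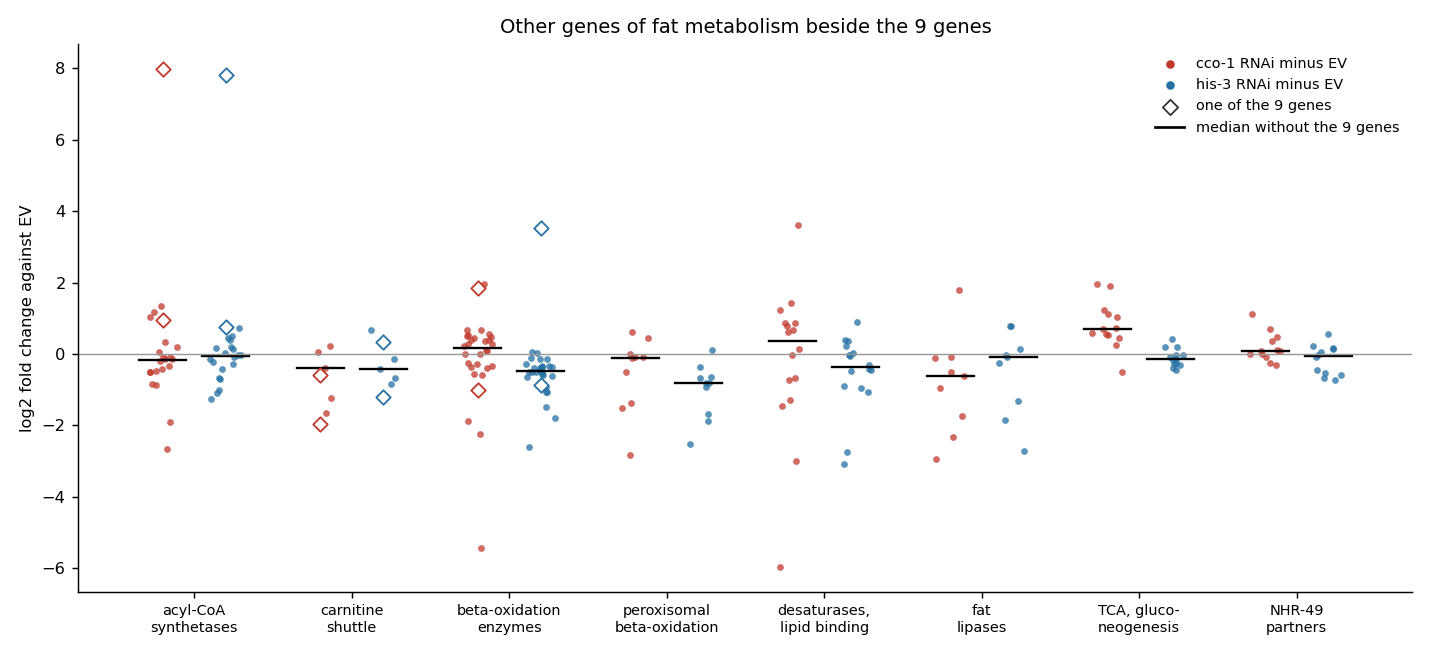
Log2 fold changes against EV of the genes in 8 lists of fat and energy metabolism, under *cco-1* RNAi in red and *his-3* RNAi in blue. Dots are genes that are not among the 9, black bars are their medians, and open diamonds are *acs-2*, *acs-11*, *cpt-1*, *cpt-3*, *hacd-1* and *ech-9* in their own lists. *acs-2* stands far above the 20 other acyl-CoA synthetase genes, and the beta-oxidation dots for *his-3* RNAi lie mostly below 0, with a median of −0.49.

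The desaturase genes *fat-5*, *fat-6* and *fat-7*, which encode the enzymes that introduce the first double bond into fatty acids, are known to depend on NHR-49 and were not higher with either treatment. *fat-7* fell from 1035 ± 67.9 normalized counts in EV to 16.5 ± 1.303 under *cco-1* RNAi and 153 ± 10.1 under *his-3* RNAi (SD, n = 3 each), on the log2 scale −5.97 and −2.76 (edgeR adjusted p = 7.84e-17 and 3.50e-14). *fat-6* fell as well, with log2 fold changes of −0.69 and −0.47 (edgeR adjusted p = 1.17e-09 and 3.39e-07). *fat-5* fell by 3.01 on the log2 scale under *cco-1* RNAi (edgeR adjusted p = 2.50e-13), while its value under *his-3* RNAi was −0.041 (adjusted p = 0.692).

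*lbp-8*, whose product is a lipid chaperone that carries a signal from the lysosome to the nucleus in a pathway with NHR-49, went in opposite directions. It had 29.6 ± 2.87 normalized counts in EV, 366 ± 45.1 under *cco-1* RNAi and 3.42 ± 1.42 under *his-3* RNAi (SD, n = 3 each). It thus rose by 3.62 and fell by 3.07 on the log2 scale (edgeR adjusted p = 5.92e-13 and 1.93e-06), and the difference between the treatments was 6.69 (standard error 0.207, edgeR adjusted p = 2.95e-14). The sizes of the fall and of that difference rest on low counts, 1.89 to 4.68 in the *his-3* RNAi libraries. Of the 16 desaturase and lipid-binding genes listed, 9 rose and 6 fell under *cco-1* RNAi, and 4 rose and 9 fell under *his-3* RNAi. The latter became 7 and 6 with *act-1* and *pmp-3* as the scale.

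Lipases free fatty acids from stores, and 9 of the 12 listed passed the filter on low counts. With *cco-1* RNAi 1 rose and 6 fell, and under *his-3* RNAi 3 rose and 3 fell. The lysosomal lipase genes *lipl-1* and *lipl-2* fell from 713 ± 29.2 to 142 ± 11.6 and 197 ± 20.6 normalized counts, and from 670 ± 9.75 to 86.7 ± 19.9 and 102 ± 6.53 (SD, n = 3 each). *fil-1*, whose name stands for fasting-induced lipase, fell by 1.73 under *cco-1* RNAi and rose by 0.78 under *his-3* RNAi (edgeR adjusted p = 5.34e-07 and 0.000105). These are the same directions as those of *cpt-1*. *fil-2*, a lipase gene of the same name, did not pass the filter and was not tested. It is named here because its libraries differed by group. It had at most 1.89 normalized counts in EV and at most 1.02 under *cco-1* RNAi, but 11.96 to 14.16 under *his-3* RNAi.

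The tricarboxylic acid cycle and the first steps of gluconeogenesis take up what *icl-1* and beta-oxidation deliver. With *cco-1* RNAi, 12 of 13 listed genes rose and 1 fell, with a median log2 fold change of 0.71, and the same counts were found under each scaling. The gene that fell, *pck-3*, is named here because its value stood out. *idh-1*, an isocitrate dehydrogenase gene, rose from 5472 ± 58.8 to 21316 ± 285 normalized counts under *cco-1* RNAi and to 7245 ± 544 under *his-3* RNAi (SD, n = 3 each). *pck-1* rose by 1.91 and *pck-2*, which encodes another phosphoenolpyruvate carboxykinase, by 1.22 under *cco-1* RNAi (edgeR adjusted p = 4.24e-14 and 6.68e-12), against 0.20 and 0.19 under *his-3* RNAi (edgeR adjusted p = 0.00982 and 0.00917). With *his-3* RNAi 3 of the 13 rose and 6 fell, which turned to 6 higher and 1 lower with *act-1* and *pmp-3* as the scale. *icl-1*, in contrast to most of these genes, was higher under *his-3* RNAi than under *cco-1* RNAi. Of the 13, 12 were higher under *cco-1* RNAi than under *his-3* RNAi and 1 lower, beside 31.8% higher and 36.8% lower over all genes tested.

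The remaining flavin-containing monooxygenase genes did not share the direction of *fmo-2*. Of *fmo-1*, *fmo-3*, *fmo-4* and *fmo-5*, all 4 fell under *cco-1* RNAi, and 3 fell under *his-3* RNAi. With *act-1* and *pmp-3* as the scale these became 2 under *cco-1* RNAi, and under *his-3* RNAi 1 rose while the other 3 did not pass. *fmo-1* had log2 fold changes of −0.96 (edgeR adjusted p = 1.72e-09) and 0.12 (adjusted p = 0.135), and *fmo-4* of −0.82 and −0.32 (edgeR adjusted p = 6.49e-10 and 7.44e-05).

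Of 12 partners and upstream factors of NHR-49, 4 rose and 2 fell under *cco-1* RNAi (33.3% and 16.7%), beside 34.9% and 35.9% over all genes tested. With *his-3* RNAi 3 rose and 5 fell (25% and 41.7%), beside 26.9% and 27.9% over all genes. These counts became 8 higher under *cco-1* RNAi, and 7 higher and 5 lower under *his-3* RNAi, with *act-1* and *pmp-3* as the scale. *mdt-15*, the Mediator subunit that acts with NHR-49, had log2 fold changes of −0.083 and −0.095 (edgeR adjusted p = 0.168 and 0.136). *nhr-80*, a receptor that binds NHR-49, had 633 ± 47.8 normalized counts in EV, 632 ± 24.7 under *cco-1* RNAi and 395 ± 41.1 under *his-3* RNAi (SD, n = 3 each), where it fell by 0.68 on the log2 scale (edgeR adjusted p = 1.77e-06). *hlh-11*, a helix-loop-helix factor gene, rose by 1.11 and 0.56 (edgeR adjusted p = 8.49e-12 and 1.79e-07). *sbp-1*, the SREBP homologue, fell by 0.74 under *his-3* RNAi (edgeR adjusted p = 5.10e-08) and had a value of 0.11 under *cco-1* RNAi (adjusted p = 0.119).

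The genes whose pattern was most like that of *acs-2* were sought among 13515 genes whose mean normalized count reached 50, by Pearson correlation of log2(normalized count + 1) over the 9 libraries. The libraries fall into 3 groups, so that this measure mostly compares group means. *C25H3.10* came first (r = 0.997), with 38.1 ± 6.66 normalized counts in EV, 575 ± 38.3 under *cco-1* RNAi and 520 ± 81.8 under *his-3* RNAi (SD, n = 3 each), followed by *sul-3*, *F55B11.4*, *ncx-9* and *poml-4* (r = 0.993 to 0.995). None reached the fold change of *acs-2*, and *ncx-9* came closest with log2 fold changes of 4.15 and 3.86. For *fmo-2* the nearest gene was *C06B3.6* (r = 0.992), with 110 ± 10.9, 344 ± 52.5 and 695 ± 71.1 normalized counts, followed by *T04C9.1*, *sptf-2*, *T14G8.4* and *clec-75* (r = 0.987 to 0.991).

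Markers of tissues and of the larval stage moved with the treatments too, where 70.8% of all genes tested were called under *cco-1* RNAi and 54.8% under *his-3* RNAi. The summed normalized count of 9 intestinal markers was 111086 to 121696 in EV, 212514 to 215753 under *cco-1* RNAi and 71421 to 86488 under *his-3* RNAi, and 6 rose and 3 fell under *cco-1* RNAi while all 9 fell under *his-3* RNAi. The sum is weighted to abundant genes. *asp-1*, the largest part of it, had 48132 ± 3238 normalized counts in EV and 104252 ± 1628 under *cco-1* RNAi (SD, n = 3 each). The 3 that fell under *cco-1* RNAi were *elt-2*, *elt-7* and *pept-1*, with log2 fold changes of −0.24, −0.95 and −0.31. On the scale of *act-1* and *pmp-3*, 6 of the 9 intestinal markers rose and 1 fell under *cco-1* RNAi, and 6 fell under *his-3* RNAi. Under *his-3* RNAi, where these markers were lower, *acs-2*, *acs-11*, *nhr-49*, *fmo-2*, *cpt-1*, *ech-9* and *icl-1* were higher and *hacd-1* and *cpt-3* lower. Of 7 hypodermal and cuticle markers, 2 rose and 5 fell under *cco-1* RNAi. Their sum was 13782 to 18860, against 77265 to 80530 in EV and 66254 to 76274 under *his-3* RNAi. With *cco-1* RNAi their log2 fold changes ran from −7.21 for *col-19* to 1.51 for *dpy-10*. The EV libraries held 4047 to 4407 normalized counts of *col-19*, and those of *cco-1* RNAi only 4.09 to 42.0. Under *his-3* RNAi *col-19* fell far less, to between 2292 and 2829. Of 7 molting genes, 3 rose and 4 fell under *cco-1* RNAi, from *mlt-10* at −3.86 to *ptr-10* at 2.08 on the log2 scale, and 3 rose and 2 fell under *his-3* RNAi. On the scale of *act-1* and *pmp-3* the latter became 4 higher, and the hypodermal markers under *his-3* RNAi went from 2 higher and 3 lower to 4 higher and 1 lower.

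All 9 sperm markers fell under *cco-1* RNAi, with a median log2 fold change of −0.42, and 1 rose and 3 fell under *his-3* RNAi, with a median of −0.10. Of 8 oocyte markers, 1 rose and 2 fell under *cco-1* RNAi, among them *perm-2* at −3.41, and 7 rose and 1 fell under *his-3* RNAi, with a median of 0.38. Of 10 germline markers, 2 rose and 6 fell under *cco-1* RNAi, and 4 rose and 5 fell under *his-3* RNAi. Among 8 neuronal markers 5 rose with each treatment and the others did not pass, and 5 and 6 of 7 body muscle markers fell with *cco-1* and *his-3* RNAi. No marker was at 0 in any group. On the scale of *act-1* and *pmp-3*, 8 sperm markers fell under *cco-1* RNAi but 6 rose under *his-3* RNAi, and the oocyte markers became 3 higher and 2 lower, and 7 higher. The germline markers became 2 higher and 2 lower, and 6 higher and 1 lower. Whether the groups had reached the same point of larval development was not tested. The part of these marker shifts in the levels of the 9 genes was not tested either.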

How the data were processed

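Stranded libraries of polyadenylated RNA from 9 samples were analysed. The authors aligned the reads with STAR 2.5.3a to WBcel235 and used HTSeq to count them by gene. The deposited table holds these raw counts, not normalized or filtered. Reads that aligned to several places stayed uncounted, 6.30 to 7.27% of the reads in the table, and the 5 summary lines of HTSeq were left out of the tests. Groups came from the labels. Symbols, positions and exon lengths came from Ensembl release 115 of the same build, and 15978 of the 16817 genes tested had a symbol.

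Counts were scaled by TMM and tested with edgeR 4.0.16 (R 4.3.3), by its quasi-likelihood F test, with all 9 libraries in 1 model that has a mean for each group. The adjusted p is by Benjamini-Hochberg over all genes tested, and the prior count was 0.125. The standard error was taken as the size of the log2 fold change over the root of its F value. The biological coefficient of variation came to 4.92%. The 3 libraries per group limit the precision, and so does the counting error, which weighs more the fewer reads a gene has. The fit was tested on simulated data.

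The 9 genes and all lists were chosen with earlier results of these data known. The lists were drawn up by gene name. The text names the 9 genes, up to 4 genes per list whose mean normalized count reached 50, by largest change, genes that a clause on function needs, the RNAi targets, and the 5 genes most like *acs-2* and *fmo-2*. Alternatives were limma-voom (limma 3.58.1), DESeq2 1.42.0, other scalings and filters, a prior count of 2, fits without the third group, a block for the replicate number, and leaving out each library. Sequences were not used here.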

Additional observations from a re-analysis of the deposited data

How the results depend on the processing

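Across 19 alternatives, 502 values of the 9 genes kept their side of the threshold, 4 lost and 7 gained a call, and no called value changed sign. The value of *nhr-49* under *cco-1* RNAi, which was not called, became −0.018 without *cco-1* RNAi replicate 3. The calls concerned are those of *cpt-3* with *his-3* RNAi against EV, *nhr-49* with *cco-1* RNAi against EV, and *acs-2*, *acs-11* and *hacd-1* between the treatments. With no filter, 1098 of 23808 genes instead of 664 of 16817 passed both thresholds with *his-3* RNAi, and 810 of 16487 with the default filter of edgeR. The main filter cannot keep a gene that has more than 5 reads only in the 3 libraries of a single group. The part of this in these counts was not tested. The counts of the 9 genes called stayed within 1.5 times of the main count under each alternative. Same-numbered libraries of different groups did not deviate together (correlations −0.0625 to 0.0862 between group-centred values), so that the numbers do not pair them. With the replicate block, 8, 9 and 6 of the 9 genes were called in the 3 comparisons and 11898, 9174 and 11488 genes in all, against 8, 9 and 6 and 11912, 9213 and 11544 without it. With *act-1* and *pmp-3* as the scale, the split of higher and lower calls went from 5872 and 6040 to 7529 and 4552 with *cco-1* RNAi, from 4525 and 4688 to 9450 and 1827 with *his-3* RNAi, and from 5354 and 6190 to 3945 and 7433 between the treatments. Scaling by library size alone gave 6925 and 5210, 8373 and 2457, and 4115 and 7629. Depth limits *cpt-3*, with 2 to 20 reads per library, and the EV values of *acs-2*, *fmo-2* and *ech-9*.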
